A study of Homo sapiens with 8 samples.

Results

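The 42 genes described here are interferon-stimulated genes, those whose transcription rises when cells sense interferon. They were chosen by name as a module of known interferon targets, with earlier results of these data known. All 42 were found by symbol among the 17912 genes of the deposited tables. Their RNA was measured by sequencing of ribosome-depleted total RNA in NKM-1, a cell line established from human myeloid leukemia and wild type in the labels. SF153, at 30 uM for 48 h, was compared with its solvent DMSO, also for 48 h. The series describes SF153 as an inhibitor of UHM splicing factors (proteins with a U2AF homology motif), and its title concerns leukemic cells, their cell cycle and the acidity of their lysosomes. Of the 8 libraries, 4 came from SF153-treated cells and 4 from DMSO-treated cells, and each treatment had 2 libraries in batch 1 and 2 in batch 2. A library is named by treatment, batch and number, as in SF153 2.1. The labels do not say that libraries of 1 treatment and batch are separate cultures, so the spread between them may be technical. This spread is behind the p-values within and between batches. In the test over both batches, fitted without a batch term, differences between batches enter the spread as well.

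Interferons of type I bind a receptor of the chains IFNAR1 and IFNAR2, whose kinases JAK1 and TYK2 phosphorylate STAT2 and so start the signal. STAT2 and IRF9 act within the complex ISGF3, which binds an interferon-stimulated response element (ISRE) in the promoters of its targets. These targets sense viral RNA, block translation or virus entry and release, or attach the ubiquitin-like protein ISG15 to other proteins, and many cells keep a low level of them without added interferon.

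The ISRE core was searched as GAAA, any 2 bases and GAAA again, on both strands, overlapping matches included, in promoter windows from RefSeq (GRCh38.p14) that run from 250 bases before to 50 after a transcript start. Of the 42 genes, 34 had a window, and 24 of these 34 (70.6%) held at least 1 match, compared with 4.38% of 27305 genes and 3.57% of 35116 windows in the whole table. A few windows are shown, each for a reason given beside it. They are written 5′ to 3′ along the gene, with ISRE core matches in capitals. IFI44L (chr1:78620278-78620397 on the forward strand) and IFI6 (chr1:27672273-27672352 on the reverse strand) were those of the 42 genes called different between the controls of the batches, though not in every setting. OAS3 (chr12:112938324-112938473 on the forward strand) was among the largest increases.
IFI44L: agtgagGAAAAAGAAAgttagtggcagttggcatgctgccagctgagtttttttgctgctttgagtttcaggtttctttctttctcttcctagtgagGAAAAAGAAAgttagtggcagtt
IFI6: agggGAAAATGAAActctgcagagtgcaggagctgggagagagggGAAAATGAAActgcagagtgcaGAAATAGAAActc
OAS3: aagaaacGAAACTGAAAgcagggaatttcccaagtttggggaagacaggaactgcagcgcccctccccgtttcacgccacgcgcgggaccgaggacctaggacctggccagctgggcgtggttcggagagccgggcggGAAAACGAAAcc
In the IFI44L window a stretch of 29 bases, each copy with a match, occurs again 91 bases further on. The IFI6 window holds 3 matches.
The helicase gene DDX60 (chr4:168318788-168318847 on the reverse strand) and its paralog DDX60L (chr4:168480528-168480587 on the reverse strand) each hold 2 matches and are shown as a pair of related genes. The DDX60 window lies at the start of its GENCODE 29 gene model. That of DDX60L belongs to a RefSeq start inside its model (chr4:168356735-168537786).
DDX60: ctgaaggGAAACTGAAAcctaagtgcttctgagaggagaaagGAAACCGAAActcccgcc
DDX60L: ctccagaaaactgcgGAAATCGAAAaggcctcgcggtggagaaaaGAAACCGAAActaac
ISG15 (chr1:1013372-1013411 on the forward strand) and HERC5 (chr4:88456989-88457058 on the forward strand) are shown because both were lower in SF153. Matches overlap in both, and those of HERC5 lie on the opposite strand, so that the capitals show the reverse complement.
ISG15: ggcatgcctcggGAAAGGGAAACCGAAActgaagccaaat
HERC5: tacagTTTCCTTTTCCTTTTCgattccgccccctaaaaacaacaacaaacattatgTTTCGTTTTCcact
A match was found in 11 of the 18 genes called higher that had a window, in 2 of the 3 called lower and in 11 of the 13 that were not called or not tested. The 10 genes with a window and no match of these letters were STAT2, IRF9, OAS1, XAF1, SAMD9L, HERC6 and SP110, all called higher, UBE2L6, called lower, and CMPK2 and IFI35. The GAS element, known from genes that respond to interferon gamma, was searched as TTC, any 3 bases and GAA, which reads the same on both strands. It occurred in 11 of the 34 genes (32.4%) and in 9.38% of all genes. These matches are descriptions of letters, not of binding.

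The values are the authors' deposited gene signal, a TPM-type value, which is per transcript length; the read depth behind it is unknown. The share of mitochondrial genes was 16.8% in SF153 2.1 and 2.2 and lay between 9.17% and 9.92% elsewhere. That of the small nuclear RNA RN7SK was 18.7% and 18.2% in SF153 1.1 and 1.2, with 11.4% to 13.9% elsewhere. The tests on the 42 genes were rerun without mitochondrial and small RNA genes. Most myeloid markers looked up were present, as the label gives, and they moved in both directions. The granule enzyme gene MPO had a mean signal of 469.6 ± 57.3 in SF153 libraries and 740.3 ± 22.4 in DMSO libraries (SD, n = 4 each), and LYZ and CEBPA were also called lower. CD33 (98.5 ± 8.32 in SF153 libraries and 74.2 ± 7.07 in DMSO libraries) and ITGAM were called higher, and SPI1 and CSF3R were not called. CD14 lay below a signal of 1 in every library. Of 9 markers of other cell types the B-cell receptor chain CD79A was the 1 present, at 6.72 ± 3.70 in SF153 libraries and 27.1 ± 1.94 in DMSO libraries, and its part in the results was not tested. The other 8, and the myeloid markers ANPEP and KIT, were not found by name among the 17912 genes, so their expression was not assessed. In bulk RNA, fewer cells that express a gene and less of its RNA per cell cannot be told apart.

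Cells treated with SF153 had more RNA of most of these 42 genes than DMSO-treated cells, while other interferon targets, given below, moved in both directions. Over the 42 genes the summed signal was 1456 and 1404 (batch 1), 1540 and 1500 (batch 2) in SF153 libraries, against 1233 and 1210 (batch 1), 940.0 and 911 (batch 2) in DMSO libraries. The signal of all genes summed to 828381 in SF153 2.1 and 835840 in SF153 2.2, and to between 990815 and 1027120 in the other libraries. The test took genes whose mean signal reached 1. Of the 40 that did, 22 were higher in SF153 (55%, beside 13% of all 15542 genes tested) and 3 were lower (7.5%, beside 24.3%), at a Benjamini-Hochberg adjusted p below 0.05 by limma on log2(signal + 1), the scale of all differences given here. Every SF153 library lay above every DMSO library for 17 of the 40 genes (42.5%), all of them called higher, beside 13.2% of all tested genes. The median log2 difference of the 40 genes was 0.49, against -0.03 for all genes tested. Because the genes were chosen with earlier results of these data known, these shares and medians are descriptions. The genes that did not enter the test were IFIT1 and IFI27. The largest increases were those of IFI44L, MX1, OAS3 and XAF1, and the decreases were those of ISG15, its conjugating enzyme UBE2L6 and its ligase HERC5.

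The size of these changes depends on how libraries are scaled. All tested genes split into 2015 higher and 3770 lower with the authors' values, 3230 and 2814 after quantile normalization, and 5434 and 2110 with mitochondrial and small RNA genes left out, which moved the median of all genes by 0.32 on the log2 scale. The 40 genes had a median 0.53 above that of all genes with the authors' values, 0.62 after quantile normalization and, over 41 genes, 0.58 with those RNAs left out. Averaging the libraries of a treatment within a batch, as for technical repeats, left 11 genes higher and 3 lower, beside 6.1% and 16.5% of all genes.

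**Figure D1:**
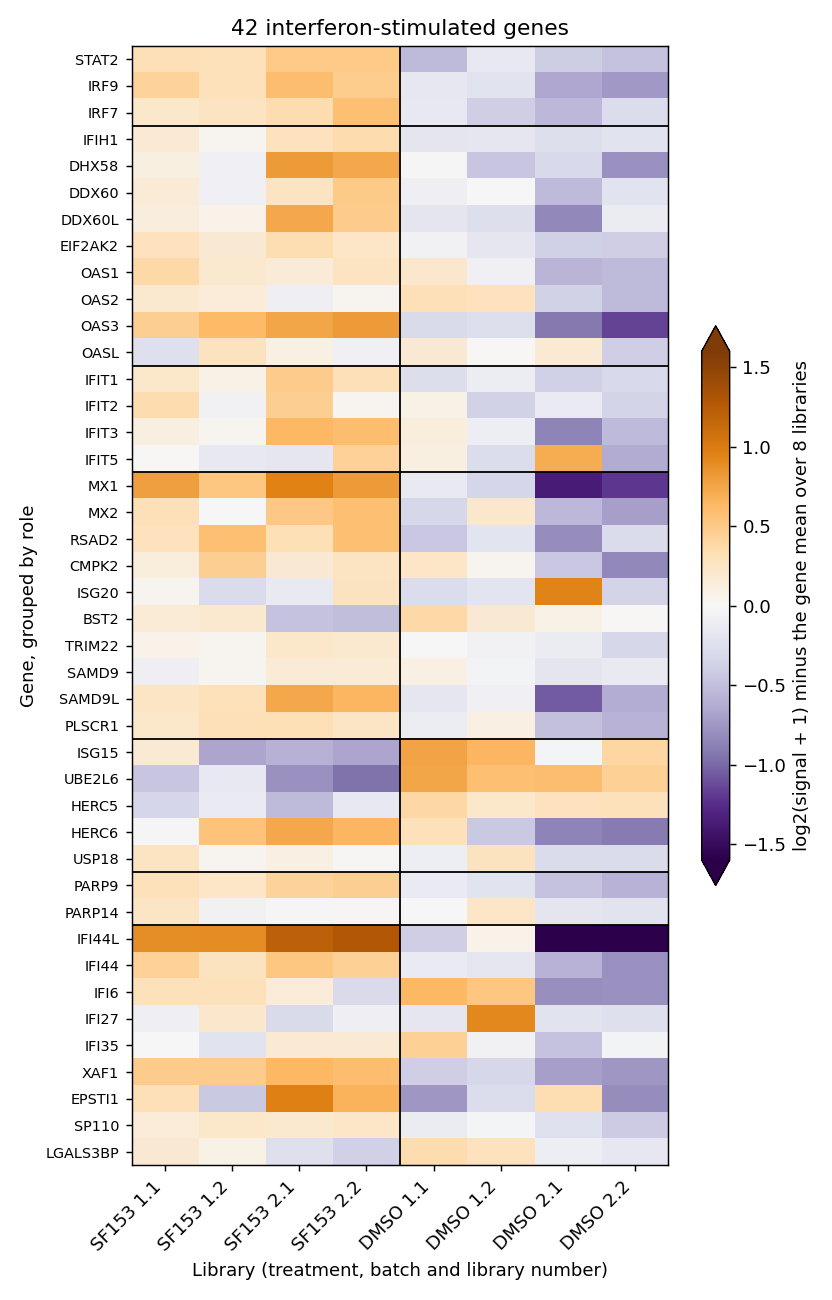
Each row is 1 of the 42 genes, grouped by role from signal proteins at the top to other genes at the bottom, and each column 1 library, SF153 on the left. Colour shows log2(signal + 1) minus the gene's mean over the 8 libraries, orange for higher and purple for lower; IFI44L, MX1 and OAS3 have the strongest contrast, and in 27 of the 40 rows of tested genes both DMSO libraries of batch 2 lie below both of batch 1.

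The 3 of these genes that carry the interferon signal, STAT2, IRF9 and IRF7, were all higher in SF153, in each batch as well as over both. STAT2, the subunit of ISGF3 that activates transcription, had signals of 72.1 and 71.4 (batch 1), 82.1 and 82 (batch 2) in SF153 libraries, against 39.7 and 51.9 (batch 1), 43.4 and 41.4 (batch 2) in DMSO libraries. All SF153 libraries lay above all DMSO libraries, and the difference passed the test (log2 difference 0.79 ± 0.10 SE, limma adjusted p = 0.000244). IRF9, the DNA-binding subunit of ISGF3, had signals of 67.7 and 61.8 (batch 1), 76.3 and 69.8 (batch 2) in SF153 libraries, against 44.6 and 43.1 (batch 1), 31.5 and 29.7 (batch 2) in DMSO libraries. IRF9 differed by 0.89 ± 0.14 SE on the log2 scale (limma adjusted p = 0.000962). In DMSO both batch 1 libraries were above both of batch 2, whereas in SF153 both batch 1 libraries were below both of batch 2. IRF7, a transcription factor that amplifies interferon production, had signals of 35.7 and 36.6 (batch 1), 39.1 and 46.2 (batch 2) in SF153 libraries, against 27.3 and 23 (batch 1), 20.7 and 25.1 (batch 2) in DMSO libraries. IRF7 differed by 0.69 ± 0.11 SE on the log2 scale (limma adjusted p = 0.0011), again with no overlap between treatments.

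**Figure D2:**
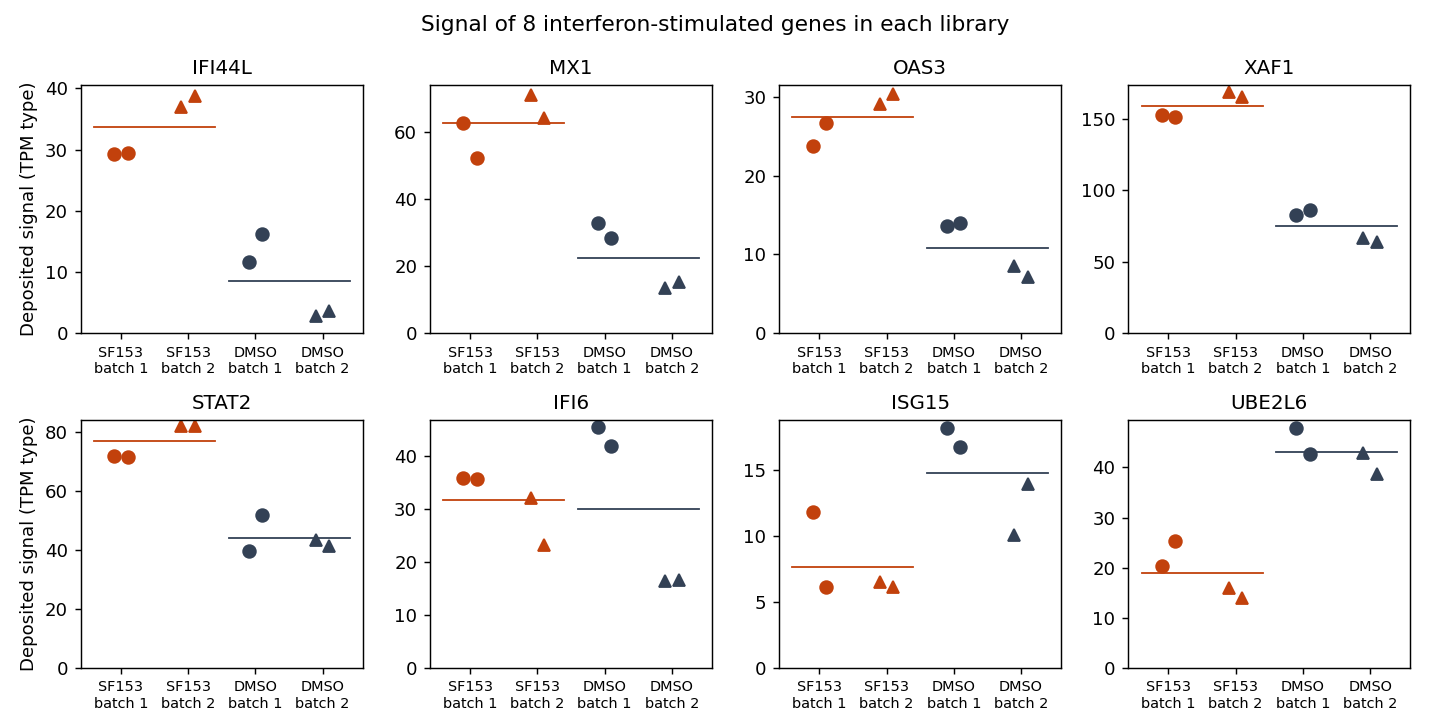
Points are the deposited signal of single libraries (circles batch 1, triangles batch 2) and lines the mean of 4 libraries, with SF153 in orange on the left and DMSO in dark grey on the right of each panel. IFI44L, MX1, OAS3, XAF1 and STAT2 separate the treatments; IFI6 separates the DMSO batches, at 45.4 and 41.9 (batch 1), 16.3 and 16.5 (batch 2); ISG15 overlaps and UBE2L6 is lower in all SF153 libraries.

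Of the 9 genes for RNA sensors and their enzymes, 6 rose and none fell at the threshold, beside 13% and 24.3% of all genes. The gene that rose most was OAS3, one of the synthases that, on binding double-stranded RNA, make short oligoadenylates and so activate RNase L. It had signals of 23.7 and 26.7 (batch 1), 29.1 and 30.4 (batch 2) in SF153 libraries, against 13.6 and 14 (batch 1), 8.55 and 7.08 (batch 2) in DMSO libraries. OAS3 differed by 1.32 ± 0.20 SE on the log2 scale (limma adjusted p = 0.00079). Within the cluster on chromosome 12, where OAS1, OAS3 and OAS2 lie side by side (chr12:112906777-112933222, chr12:112938352-112973249 and chr12:112978395-113011723, GRCh38), the neighbours moved less. OAS1 had signals of 29.6 and 26.1 (batch 1), 25.5 and 27.3 (batch 2) in SF153 libraries, against 26.5 and 21.7 (batch 1), 15.1 and 15.4 (batch 2) in DMSO libraries. OAS1 differed by 0.48 ± 0.17 SE on the log2 scale (limma adjusted p = 0.0482), with overlap between SF153 and the DMSO libraries of batch 1, and its call was lost in 10 of 20 other settings (other pseudocounts, filters, scalings, variance models and batch terms, and each library left out). OAS2 was not called over both batches, with signals of 31.5 and 30.4 (batch 1), 25.9 and 28.5 (batch 2) in SF153 libraries, against 34.4 and 33.7 (batch 1), 21.1 and 18.8 (batch 2) in DMSO libraries. OAS2 differed by 0.15 ± 0.19 SE on the log2 scale (limma adjusted p = 0.578). Its SF153 libraries lay below the DMSO libraries in batch 1 and above them in batch 2. The related OASL, which lacks synthase activity, ranged between 0.947 and 1.77 in SF153 libraries and between 0.748 and 1.61 in DMSO libraries and was not called.

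The kinase EIF2AK2 (PKR), which stops translation when it binds double-stranded RNA, had signals of 51.2 and 47.7 (batch 1), 53 and 49.7 (batch 2) in SF153 libraries, against 40.3 and 36.9 (batch 1), 31.9 and 31.7 (batch 2) in DMSO libraries. EIF2AK2 differed by 0.51 ± 0.09 SE on the log2 scale (limma adjusted p = 0.00202). Its treatments did not overlap, and the call held in all 20 other settings. IFIH1 (MDA5), a sensor of long double-stranded RNA, had signals of 13.8 and 12.5 (batch 1), 15 and 15.6 (batch 2) in SF153 libraries, against 10.5 and 10.5 (batch 1), 10 and 10.3 (batch 2) in DMSO libraries. IFIH1 differed by 0.42 ± 0.10 SE on the log2 scale (limma adjusted p = 0.0079). Its DMSO values were close together in both batches. DHX58 (LGP2), a helicase of the same family that modulates its signal, ranged between 5.57 and 11 in SF153 libraries and between 3.02 and 5.77 in DMSO libraries (log2 difference 0.78 ± 0.24 SE, limma adjusted p = 0.0267), and its call was lost without SF153 2.1 (adjusted p = 0.0732 by limma), SF153 2.2, DMSO 1.2 or DMSO 2.2. The paralogs DDX60 and DDX60L are neighbouring helicase genes on chromosome 4. DDX60L had signals of 50.4 and 48.8 (batch 1), 77.3 and 65.2 (batch 2) in SF153 libraries, against 40.5 and 38.7 (batch 1), 25.5 and 42.6 (batch 2) in DMSO libraries. DDX60L differed by 0.70 ± 0.19 SE on the log2 scale (limma adjusted p = 0.0162), with SF153 above DMSO in every library, while DDX60 ranged between 14.4 and 21.6 in SF153 libraries and between 10.1 and 15 in DMSO libraries and missed the threshold (log2 difference 0.42 ± 0.15 SE, limma adjusted p = 0.0525), though it was called higher in 7 of 20 other settings.

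The IFIT proteins bind viral RNA and hinder its translation. Of the 3 tested genes of the family 1 rose, beside 13% of all genes. IFIT3, which stabilises IFIT1 on RNA, had signals of 8.01 and 7.55 (batch 1), 12 and 11.7 (batch 2) in SF153 libraries, against 8.2 and 6.85 (batch 1), 3.62 and 4.81 (batch 2) in DMSO libraries. IFIT3 differed by 0.68 ± 0.24 SE on the log2 scale (limma adjusted p = 0.0476). In batch 1 the treatments overlapped and in batch 2 SF153 was above DMSO in both libraries. Its call was lost in 10 of 20 other settings, among them the fit with batch as a block (adjusted p = 0.0581 by limma). IFIT1, below the filter, ranged between 0.83 and 1.41 in SF153 libraries and between 0.325 and 0.604 in DMSO libraries, without overlap. IFIT2 (between 3.13 and 4.91 in SF153 libraries and between 2.32 and 3.55 in DMSO libraries) and IFIT5 (between 2.16 and 3.86 in SF153 libraries and between 1.32 and 4.87 in DMSO libraries) were not called.

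Among 10 genes whose products act on viruses directly, 6 rose and none fell, beside 13% and 24.3% of all genes. MX1, a dynamin-like GTPase that blocks influenza viruses, had signals of 62.7 and 52.2 (batch 1), 71.1 and 64.1 (batch 2) in SF153 libraries, against 32.7 and 28.4 (batch 1), 13.5 and 15.2 (batch 2) in DMSO libraries. MX1 differed by 1.53 ± 0.26 SE on the log2 scale (limma adjusted p = 0.00148). The DMSO libraries of batch 2 had the lowest values, and every SF153 library lay above every DMSO library. Its paralog MX2, next to it on chromosome 21 and known as a restriction factor of HIV, had signals of 31.7 and 25.4 (batch 1), 36.6 and 38.7 (batch 2) in SF153 libraries, against 20.1 and 29.6 (batch 1), 17.1 and 15.2 (batch 2) in DMSO libraries. MX2 differed by 0.69 ± 0.20 SE on the log2 scale (limma adjusted p = 0.0229). DMSO 1.2 overlapped SF153, and the call was lost without either SF153 library of batch 2 or either DMSO library of batch 2 (adjusted p between 0.0605 and 0.0635 by limma). RSAD2 (viperin), an enzyme that makes a chain-terminating nucleotide, had signals of 8.35 and 10.6 (batch 1), 8.6 and 10.5 (batch 2) in SF153 libraries, against 4.67 and 5.69 (batch 1), 3.4 and 5.32 (batch 2) in DMSO libraries. RSAD2 differed by 0.87 ± 0.16 SE on the log2 scale (limma adjusted p = 0.00216), with no overlap. CMPK2, a nucleotide kinase encoded next to RSAD2, ranged between 9.69 and 12.4 in SF153 libraries and between 4.48 and 10.5 in DMSO libraries and was not called (log2 difference 0.51 ± 0.22 SE, limma adjusted p = 0.0961).

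SAMD9L, an antiviral protein that also restrains cell growth, had signals of 30.1 and 31 (batch 1), 42.6 and 40 (batch 2) in SF153 libraries, against 22.1 and 24 (batch 1), 11.6 and 16 (batch 2) in DMSO libraries. SAMD9L differed by 0.96 ± 0.21 SE on the log2 scale (limma adjusted p = 0.00646). All SF153 libraries were above all DMSO libraries. Its neighbour and paralog SAMD9 averaged 18.3 ± 1.53 in SF153 libraries and 16.5 ± 1.58 in DMSO libraries (SD, n = 4 each) and was not called (log2 difference 0.14 ± 0.10 SE, limma adjusted p = 0.317). After quantile normalization (adjusted p = 0.0311 by limma) or without mitochondrial and small RNA genes (0.00684) SAMD9 was called higher. PLSCR1, a phospholipid scramblase, averaged 43.3 ± 1.47 in SF153 libraries and 30 ± 6.86 in DMSO libraries (log2 difference 0.54 ± 0.14 SE, limma adjusted p = 0.0139), without overlap. TRIM22, a ubiquitin ligase with the highest signal of the 40 tested genes in both treatments, averaged 195 ± 12.6 in SF153 libraries and 163 ± 15.5 in DMSO libraries (log2 difference 0.26 ± 0.09 SE, limma adjusted p = 0.0384), and this small difference was lost in 8 of 20 other settings. BST2 (tetherin), which holds budding virus on the cell surface, had signals of 55.2 and 56.8 (batch 1), 35.1 and 34.4 (batch 2) in SF153 libraries, against 63.8 and 56 (batch 1), 52.1 and 49.5 (batch 2) in DMSO libraries. It was not called over both batches (log2 difference -0.31 ± 0.18 SE, limma adjusted p = 0.194), but was called lower with batch as a block (adjusted p = 0.0363 by limma). The exonuclease ISG20 ranged between 2.34 and 3.9 in SF153 libraries and between 2.19 and 6.87 in DMSO libraries, its highest value being that of DMSO 2.1, and was not called.

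Of 5 genes of the ISG15 pathway, 3 fell and 1 rose, where 24.3% of all genes were called lower and 13% higher. ISG15 is joined to proteins by an activating enzyme, the conjugating enzyme UBE2L6 and, in human cells, the ligase HERC5, and USP18 removes it. UBE2L6 had signals of 20.4 and 25.3 (batch 1), 15.9 and 14 (batch 2) in SF153 libraries, against 47.9 and 42.6 (batch 1), 43 and 38.6 (batch 2) in DMSO libraries. UBE2L6 differed by -1.18 ± 0.16 SE on the log2 scale (limma adjusted p = 0.000484), lower in every SF153 library, and its call held in all 20 other settings. ISG15 had signals of 11.8 and 6.16 (batch 1), 6.5 and 6.12 (batch 2) in SF153 libraries, against 18.2 and 16.8 (batch 1), 10.1 and 14 (batch 2) in DMSO libraries. ISG15 differed by -0.88 ± 0.23 SE on the log2 scale (limma adjusted p = 0.0139). SF153 1.1 overlapped the DMSO range, and the other SF153 libraries lay below it. HERC5 had signals of 8.37 and 9.79 (batch 1), 7.21 and 9.61 (batch 2) in SF153 libraries, against 14.4 and 12.8 (batch 1), 13.4 and 13.5 (batch 2) in DMSO libraries. HERC5 differed by -0.58 ± 0.11 SE on the log2 scale (limma adjusted p = 0.0034), again with no overlap. Without mitochondrial and small RNA genes ISG15 and HERC5 were no longer called (-0.60 with adjusted p = 0.0512 and -0.28 with adjusted p = 0.0879, by limma), while their differences kept their sign.

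HERC6, whose mouse counterpart is the main ISG15 ligase in that species, lies beside HERC5 on chromosome 4 (chr4:88378739-88443111 and chr4:88457117-88506163) and moved in the opposite direction. It had signals of 9.04 and 13.8 (batch 1), 15.9 and 14.9 (batch 2) in SF153 libraries, against 11.4 and 6.56 (batch 1), 4.6 and 4.45 (batch 2) in DMSO libraries. HERC6 differed by 0.95 ± 0.27 SE on the log2 scale (limma adjusted p = 0.021). SF153 1.1 overlapped DMSO 1.1, and the call was lost without either SF153 library of batch 2 or either DMSO library of batch 2 (adjusted p between 0.0552 and 0.0594 by limma). USP18, which also dampens the receptor, averaged 6.27 ± 0.534 in SF153 libraries and 5.36 ± 1.25 in DMSO libraries and was not called (log2 difference 0.21 ± 0.15 SE, limma adjusted p = 0.325). Reads of USP18 may be shared with its near-identical copy USP41, which ranged between 1.95 and 3.6 in SF153 libraries and between 1.41 and 2.63 in DMSO libraries, so the value of each is uncertain.

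Of the ADP-ribosyltransferase genes, PARP9 rose and PARP14 was not called. PARP9 had signals of 20.5 and 19.4 (batch 1), 22.3 and 23.1 (batch 2) in SF153 libraries, against 15 and 14.1 (batch 1), 11.6 and 10.7 (batch 2) in DMSO libraries. PARP9 differed by 0.70 ± 0.12 SE on the log2 scale (limma adjusted p = 0.0016), without overlap. PARP14 averaged 40 ± 3.83 in SF153 libraries and 37.6 ± 5.76 in DMSO libraries (log2 difference 0.10 ± 0.12 SE, limma adjusted p = 0.548). DTX3L, the ubiquitin ligase that works as a complex with PARP9 and starts in the opposite direction from the same stretch of chromosome 3, was looked up after the values were seen. It had signals of 15 and 14.8 (batch 1), 13.9 and 14.1 (batch 2) in SF153 libraries, against 23.3 and 24.2 (batch 1), 19.3 and 19.5 (batch 2) in DMSO libraries and was lower in SF153 (log2 difference -0.54 ± 0.10 SE, limma adjusted p = 0.00218), a call lost without mitochondrial and small RNA genes (-0.22, adjusted p = 0.0808 by limma). The gene models overlap at their starts, at chr3:122564238 to chr3:122564577, and whether counting used strand is not stated in the labels or files.

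Among the remaining genes, 4 of 8 tested rose, beside 13% of all genes. IFI44L had the largest increase of all 40, with signals of 29.3 and 29.5 (batch 1), 36.9 and 38.8 (batch 2) in SF153 libraries, against 11.5 and 16.2 (batch 1), 2.79 and 3.6 (batch 2) in DMSO libraries. IFI44L differed by 2.13 ± 0.44 SE on the log2 scale (limma adjusted p = 0.00422). All SF153 libraries were above all DMSO libraries, and DMSO of batch 2 was lowest. IFI44, its paralog beside it on chromosome 1, had signals of 60.5 and 53.6 (batch 1), 64.2 and 60.7 (batch 2) in SF153 libraries, against 40.5 and 39.2 (batch 1), 29.5 and 25.5 (batch 2) in DMSO libraries. IFI44 differed by 0.83 ± 0.14 SE on the log2 scale (limma adjusted p = 0.00166), without overlap. XAF1, which binds and opposes the apoptosis inhibitor XIAP, had signals of 152 and 152 (batch 1), 169 and 165 (batch 2) in SF153 libraries, against 82.8 and 86 (batch 1), 66.3 and 63.9 (batch 2) in DMSO libraries. XAF1 differed by 1.09 ± 0.11 SE on the log2 scale (limma adjusted p = 7.72e-05), again without overlap. SP110, a nuclear body protein, averaged 57.1 ± 1.65 in SF153 libraries and 43.5 ± 5.05 in DMSO libraries (log2 difference 0.39 ± 0.09 SE, limma adjusted p = 0.00744), without overlap. IFI6, a membrane protein known to inhibit apoptosis, had signals of 35.7 and 35.7 (batch 1), 32 and 23.2 (batch 2) in SF153 libraries, against 45.4 and 41.9 (batch 1), 16.3 and 16.5 (batch 2) in DMSO libraries and was not called (log2 difference 0.21 ± 0.34 SE, limma adjusted p = 0.662). The range of its DMSO values enclosed that of SF153.

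EPSTI1 (between 2.29 and 7.62 in SF153 libraries and between 1.52 and 4.56 in DMSO libraries) and IFI35 (between 18 and 23.9 in SF153 libraries and between 14.8 and 29.1 in DMSO libraries) were not called. LGALS3BP, a secreted binding partner of galectins, averaged 94.9 ± 17.5 in SF153 libraries and 108 ± 19.4 in DMSO libraries and was not called (log2 difference -0.18 ± 0.16 SE, limma adjusted p = 0.4). With batch as a block it was called lower (adjusted p = 0.045 by limma). This fit had 21 genes higher and 5 lower in place of 22 and 3, beside 13.3% and 24.9% of all genes. IFI27, below the filter, lay between 0 and 0.42 in SF153 libraries and at 0.0858 and 1.34 (batch 1), 0.0592 and 0.0449 (batch 2) in DMSO libraries.

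Within batches the difference between SF153 and DMSO had a higher median in batch 2. In batch 2, 26 of the 40 genes were called higher (7.68% of all genes) and 3 lower (19.2%), with a median log2 difference of 0.75 against -0.05 for all genes. In batch 1, 10 were called higher (7.42% of all genes) and 2 lower (17.4%), with a median of 0.23 against -0.04 for all genes. All 22 genes called higher over both batches had differences above 0 in each batch, and 10 of them were called in both. The 10 genes called in batch 1 were STAT2, IRF9, IRF7, EIF2AK2, OAS3, MX1, PARP9, IFI44L, IFI44 and XAF1. Without SF153 1.1, DMSO 1.1 or DMSO 1.2, 6 genes were called higher in batch 1. In batch 1 ISG15 and UBE2L6 were called lower, and in batch 2 BST2, UBE2L6 and HERC5. UBE2L6 was lower in batch 1 (log2 difference -0.96 ± 0.14 SE, limma adjusted p = 0.00214) and in batch 2 (log2 difference -1.39 ± 0.14 SE, limma adjusted p = 0.000252).

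**Figure D3:**
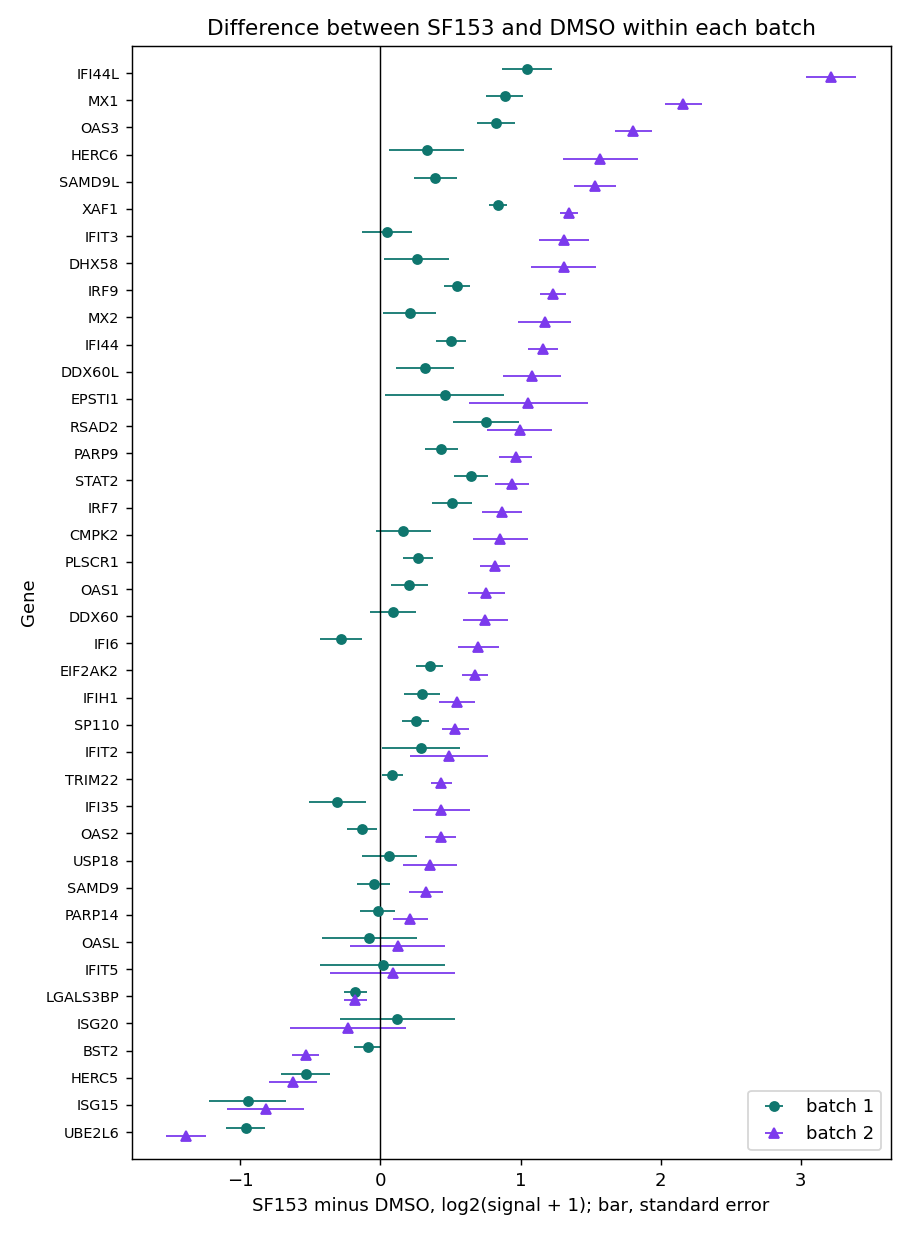
Each row is 1 of the 40 tested genes, ordered by the batch 2 difference, with the log2 difference SF153 minus DMSO in batch 1 (circles) and batch 2 (triangles) and its standard error. IFI44L stands at 1.05 in batch 1 and 3.22 in batch 2, and most triangles lie to the right of the circles except for genes near or below 0.

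A test of whether the differences themselves differed between batches (batch 1 minus batch 2) called 2 genes lower (0.148% of all genes) and none higher (0.997%). These were IFI44L, with a difference between SF153 and DMSO of 1.05 ± 0.18 SE in batch 1 and 3.22 ± 0.18 SE in batch 2 (interaction -2.17 ± 0.25 SE, limma adjusted p = 0.00671), and MX1, with 0.89 ± 0.13 SE in batch 1 and 2.16 ± 0.13 SE in batch 2 (interaction -1.27 ± 0.19 SE, limma adjusted p = 0.0207). The interaction lay below 0, towards a higher difference in batch 2, for 35 of the 40 genes and above 0 for 5, where 54.5% of all genes lay above 0. Of the 40, 23 had an unadjusted interaction p below 0.05, beside 10.1% of all genes. The MX1 call was lost on leaving out any 1 library other than SF153 1.1 (adjusted p between 0.0598 and 0.106 by limma), and both calls were lost with a constant variance prior (0.0960 for IFI44L and 0.185 for MX1).

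The batches also differed among the controls, whose libraries enter the differences within batches and the interaction as well. In DMSO alone, IFI44L (batch 1 minus batch 2 gave 1.82 ± 0.18 SE, limma adjusted p = 0.0231) and IFI6 (batch 1 minus batch 2 gave 1.36 ± 0.15 SE, limma adjusted p = 0.0308) were called higher in batch 1. They are 2 of the 7 genes (0.045%) called higher in batch 1, and 5 (0.0322%), none of them among these genes, were called lower. The difference was above 0 for 37 of the 40 genes, against 53% of all genes, and its median was 0.35 against 0.02. Both batch 1 libraries lay above both batch 2 libraries for 27 of the 40 genes, beside 22.3% of all genes, and below them for none, beside 16.7%. An unadjusted p below 0.05 was reached by 22 of the 40 and by 8.35% of all genes.

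MX1 (batch 1 minus batch 2 gave 1.04 ± 0.13 SE, limma adjusted p = 0.068), OAS3 (0.75 ± 0.13 SE, limma adjusted p = 0.225), OAS2 (0.74 ± 0.11 SE, limma adjusted p = 0.121) and SAMD9L (0.72 ± 0.15 SE, limma adjusted p = 0.335) were among the larger of the uncalled differences. None of the 5 genes of the ISG15 pathway was called, with 0.81 for HERC6, 0.52 for ISG15, 0.38 for USP18, 0.15 for UBE2L6 and 0.02 for HERC5. Neither of the calls held in all settings. That of IFI44L had an adjusted p of 0.0528 with a pseudocount of 0.1 and 0.302 in a fit of the 4 DMSO libraries alone, by limma, and that of IFI6 0.0544 and 0.128. Without any single DMSO library IFI6 was not called (adjusted p between 0.202 and 0.328 by limma). IFI44L was called without DMSO 1.1, but not without DMSO 1.2, 2.1 or 2.2 (between 0.0975 and 0.137) or any single SF153 library (between 0.085 and 0.0903).

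Among SF153 libraries the order was the other way for most genes. The batch 1 minus batch 2 difference was above 0 for 12 of the 40 genes, against 55% of all genes, with a median of -0.16 against 0.03. Both batch 1 libraries lay below both of batch 2 for 21 genes, beside 17.8% of all genes, and above them for 5, beside 26.3%. BST2 (batch 1 minus batch 2 gave 0.67 ± 0.09 SE, limma adjusted p = 0.00682) and LGALS3BP (0.44 ± 0.08 SE, limma adjusted p = 0.0255) were called higher in batch 1 (3.35% of all genes) and none lower (0.309%). DMSO and SF153 differences share no library. IFI44L was higher in batch 1 by 1.82 in DMSO and had a difference of -0.36 in SF153. The values for MX1 were 1.04 in DMSO and -0.23 in SF153, and for IFI6 1.36 in DMSO and 0.38 in SF153. Without mitochondrial and small RNA genes, whose shares differed between the SF153 batches, the median was -0.27 against -0.06 for all genes in SF153 and 0.29 against -0.04 in DMSO.

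**Figure D4:**
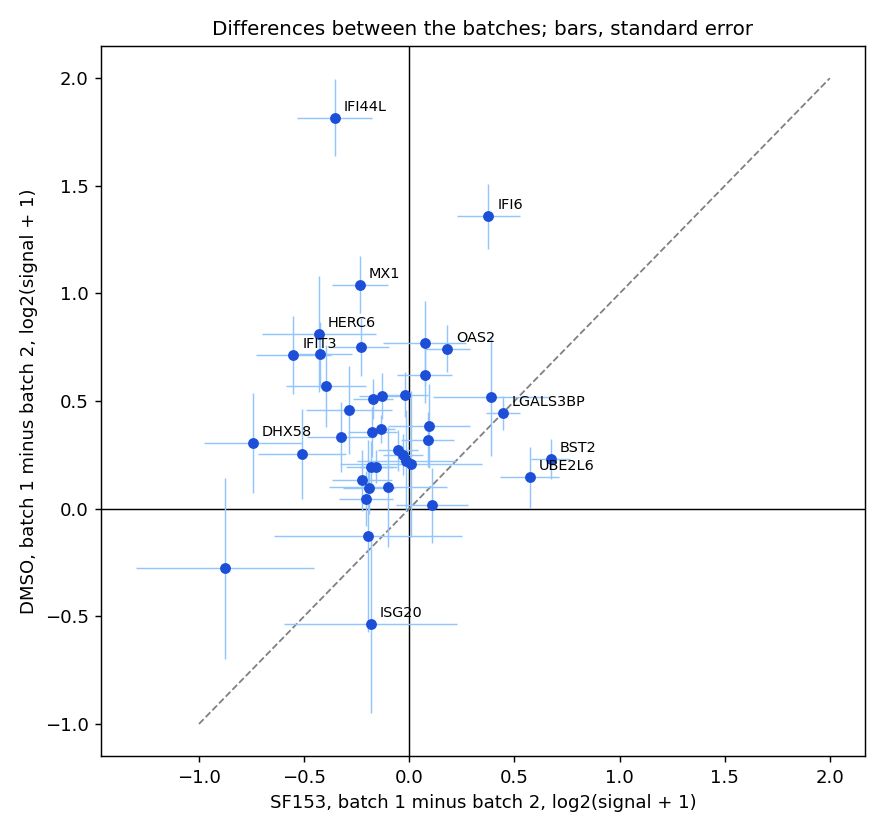
Each point is 1 of the 40 tested genes, with the batch 1 minus batch 2 log2 difference among SF153 libraries on the horizontal axis and among DMSO libraries on the vertical axis, bars giving standard errors and the dashed line equal differences. Of the 40 points, 37 lie above 0 on the DMSO axis and 12 above 0 on the SF153 axis; IFI44L and IFI6 are highest on the DMSO axis.

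Other genes of the pathway moved in both directions. A set of 123 genes for interferons, receptors, sensors, regulators and other interferon targets was looked up, of which 84 were tested: 14 were higher and 24 lower in SF153, where 13% and 24.3% of all genes were, with a median log2 difference of -0.04 against -0.03 for all genes. The split moved with scaling, as did that of all genes. It was 22 higher and 16 lower after quantile normalization (20.8% and 18.1% of all genes) and 22 and 15 after removal of the trend with length and level (21.2% and 18.6%). It was 15 and 21 after median-of-ratios scaling (16.5% and 21.1%), and 42 and 10 of 86 with mitochondrial and small RNA left out (32.2% and 12.5%). The 22 interferon genes listed were not found by name among the 17912 genes, so their expression was not assessed.

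The lists of the set are small, and their counts are a description beside the shares of all genes just given. Of 9 tested receptor and signal genes, 1 rose and 4 fell. IFNGR1, a chain of the interferon gamma receptor, had signals of 35.6 and 41.9 (batch 1), 35.3 and 38.9 (batch 2) in SF153 libraries, against 70.1 and 71.9 (batch 1), 67.6 and 62.2 (batch 2) in DMSO libraries. IFNGR1 differed by -0.83 ± 0.08 SE on the log2 scale (limma adjusted p = 8.53e-05), and its call held in all 20 other settings. IFNGR2 (-0.48 ± 0.12 SE, limma adjusted p = 0.00884), IFNAR1 (-0.34 ± 0.09 SE, limma adjusted p = 0.0117) and JAK1 (-0.38 ± 0.08 SE, limma adjusted p = 0.00462) were lower too, but not called after quantile normalization (-0.28 for IFNGR2, -0.15 for IFNAR1 and -0.19 for JAK1) or without mitochondrial and small RNA genes (-0.16, -0.0052 and -0.06). TYK2 averaged 147 ± 16.7 in SF153 libraries and 119 ± 5.03 in DMSO libraries (0.30 ± 0.09 SE, limma adjusted p = 0.0214), a call lost without SF153 2.1, DMSO 1.1 or DMSO 2.1. IFNAR2 averaged 63.8 ± 13.6 in SF153 libraries and 56.1 ± 6.49 in DMSO libraries and was not called (0.16 ± 0.15 SE, limma adjusted p = 0.422), but was without mitochondrial and small RNA genes (0.51, limma adjusted p = 0.0249).

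Of 15 sensors and adaptors, 3 rose and 5 fell, where 13% and 24.3% of all genes were called. The DNA sensor of endosomes TLR9 averaged 2.76 ± 0.833 in SF153 libraries and 7.27 ± 0.758 in DMSO libraries (-1.16 ± 0.18 SE, limma adjusted p = 0.00086), and its adaptor MYD88 17 ± 1.59 in SF153 libraries and 27 ± 3.62 in DMSO libraries (-0.63 ± 0.11 SE, limma adjusted p = 0.00205). The kinase IKBKE, which activates interferon regulatory factors, averaged 49.1 ± 2.06 in SF153 libraries and 34.3 ± 2.7 in DMSO libraries (0.51 ± 0.08 SE, limma adjusted p = 0.000892). These calls held in all 20 other settings, whereas that of the RNA sensor TLR7 (-0.48 ± 0.16 SE, limma adjusted p = 0.0389) was lost in 10 of 19. Among 8 negative regulators the phosphatases PTPN1 (-0.51 ± 0.10 SE, limma adjusted p = 0.00277), PTPN11 (-0.44 ± 0.07 SE, limma adjusted p = 0.00137) and PTPN6 (-0.40 ± 0.11 SE, limma adjusted p = 0.0172) fell, none of which was called without mitochondrial and small RNA genes. RNASEH2A, the catalytic subunit of an enzyme that removes RNA from DNA, was the 1 gene called of 8 that limit nucleic acids, at 9.04 ± 1.24 in SF153 libraries and 19.9 ± 0.53 in DMSO libraries (-1.07 ± 0.11 SE, limma adjusted p = 9.64e-05).

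Targets tied more to interferon gamma and IRF1 gave 1 increase and 3 decreases among 8 tested. NLRC5, the activator of MHC class I genes, averaged 137 ± 8.72 in SF153 libraries and 95.1 ± 7.48 in DMSO libraries (0.52 ± 0.08 SE, limma adjusted p = 0.00076), and the tryptophanyl-tRNA synthetase WARS1 27.5 ± 4.19 in SF153 libraries and 40.6 ± 5.25 in DMSO libraries (-0.55 ± 0.12 SE, limma adjusted p = 0.00671), a call lost without mitochondrial and small RNA genes (-0.22, adjusted p = 0.148 by limma). The transcription factors IRF1 (-0.29 ± 0.07 SE, limma adjusted p = 0.0118) and IRF8 (-0.29 ± 0.10 SE, limma adjusted p = 0.0425) were called lower by small amounts, whereas leaving out the mitochondrial and small RNA genes put them at 0.0502 and 0.0486, above 0. The other 36 tested interferon targets gave 9 increases and 8 decreases, where 13% and 24.3% of all genes were called. SIGLEC1, a sialic acid receptor of macrophages, had signals of 8.42 and 9.41 (batch 1), 13.1 and 12 (batch 2) in SF153 libraries, against 4.26 and 4.13 (batch 1), 1.36 and 1.66 (batch 2) in DMSO libraries. SIGLEC1 differed by 1.68 ± 0.29 SE on the log2 scale (limma adjusted p = 0.00147). Like IFI44L it was lowest in the DMSO libraries of batch 2.

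IFITM2 and IFITM3 encode proteins that block virus entry at membranes, and both genes were called lower. IFITM2 had signals of 32.3 and 24.4 (batch 1), 7.2 and 6.15 (batch 2) in SF153 libraries, against 71.7 and 80.8 (batch 1), 52.8 and 54.4 (batch 2) in DMSO libraries. IFITM2 differed by -2.12 ± 0.47 SE on the log2 scale (limma adjusted p = 0.00586). Signals of IFITM3 were 5.83 and 4.73 (batch 1), 2.81 and 1.97 (batch 2) in SF153 libraries, against 20.4 and 12.7 (batch 1), 9.41 and 12.5 (batch 2) in DMSO libraries. IFITM3 differed by -1.64 ± 0.29 SE on the log2 scale (limma adjusted p = 0.00195). In both genes every SF153 library was below every DMSO library. The cytidine deaminase APOBEC3B averaged 3.96 ± 1.11 in SF153 libraries and 14.4 ± 1.89 in DMSO libraries (-1.66 ± 0.18 SE, limma adjusted p = 0.000116). The IFITM2 call was lost with libraries averaged within treatment and batch (adjusted p = 0.0587 by limma).

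Transcript length is given beside the results because the difference between treatments moved with it over all genes. The median log2 difference of all genes was 0.14 for longest transcripts under 1000 bases, -0.14 from 1000 to below 2000, -0.08 up to 4000, -0.06 up to 8000 and 0.01 from there on. Of the 22 genes that rose, 14 were among the 21 between 2000 and 4000 bases and 5 among the 10 between 4000 and 8000, where 14% and 13.1% of all genes rose. Those called lower had transcripts of 787 (ISG15), 1573 (UBE2L6) and 3513 bases (HERC5). With the trend with length and level removed, 24 genes were higher and 3 lower, beside 21.2% and 18.6% of all genes.

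**Figure D5:**
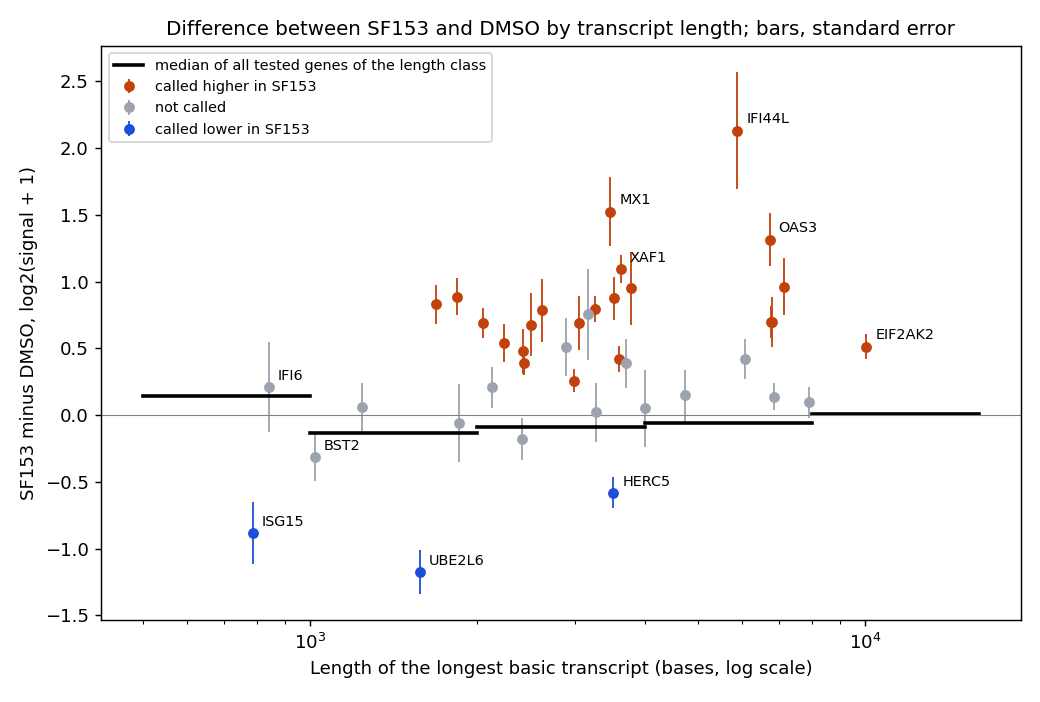
Points are the 40 tested genes, with the length of the longest basic transcript on a log scale and the log2 difference SF153 minus DMSO with its standard error; colours mark genes called higher, not called and called lower, and black lines the median of all tested genes of a length class. The class medians lie between -0.14 and 0.14, and IFI44L, MX1, OAS3 and XAF1 are above 1.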

How the data were processed

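RNA of NKM-1 cells was sequenced in 8 libraries, 4 with SF153 and 4 with DMSO, in 2 batches. Per the labels' protocols, ribosomal RNA was digested from total RNA and strand was kept by dUTP marking. The authors deposited gene-level signal, a TPM-type value whose sums differ between libraries and were lowest in SF153 2.1 and 2.2. It was therefore treated as a signal, and no counts or intervals were derived from it. CASAVA 1.8.2, STAR, Salmon, edgeR and GRCh38 are named, without roles, per the submitters' processing notes. Genes were matched to the files by symbol; positions and lengths (longest basic transcript) come from GENCODE 29 and matched 17235 of 17912 genes.

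Values were transformed as log2(signal + 1), which understates the change of low genes. Genes with a mean of at least 1 entered the test (15542 genes; limma 3.58.1, R 4.3.3), with an intensity trend, two-sided, with Benjamini-Hochberg adjustment over all of them. SF153 was compared with DMSO over 4 and 4 libraries without a batch term. Differences within and between batches, and their interaction, came from a fit with 1 mean per treatment and batch, in which all groups share 1 estimate of the spread. The test was checked on simulated data in which libraries varied independently. For SF153 against DMSO these data held no batch differences, so the check covers neither batch differences nor technical repeats. Promoters were searched with Python 3.11.15.

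Batch pairs the treatments, since the labels give it as a shared batch. Deviations of same-batch libraries had a mean Pearson r of 0.026 across genes (from -0.0041 to 0.0594). The block changed the calls of IFIT3, BST2 and LGALS3BP.

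The members, role groups and pathway lists were chosen with earlier results of these data known. Of each pathway list, up to 4 called genes with the largest absolute difference are named, with IFNAR1, IFNAR2, JAK1 and TYK2 in any case, and 1 further gene is not reported here; DTX3L was added after its values were seen. Alternatives covered pseudocount, filter, scaling, variance prior, batch terms, averaging of libraries and leaving out each library.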

Additional observations from a re-analysis of the deposited data

Results flagged for a closer look

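The difference between SF153 and DMSO differed between the batches by the test of the interaction for IFI44L (-2.17, batch 1 minus batch 2) and MX1 (-1.27), both larger in batch 2.

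SF153 and DMSO lay on opposite sides in the batches for IFI6 and OAS2. IFI6 was lower in SF153 in both libraries of batch 1 and higher in batch 2 (interaction -0.98, limma adjusted p = 0.109), and OAS2 likewise (interaction -0.56, limma adjusted p = 0.233), so neither difference between batches passed the test.

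Of 84 sets of 4 libraries (42 genes in SF153 and in DMSO), 3 had 1 library far from the others, where chance gives about 1 in 20. These were ISG15 in SF153 1.1 at 11.8, ISG20 in DMSO 2.1 at 6.87 and IFI27 in DMSO 1.2 at 1.34.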

How the results depend on the processing

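Over both batches, 11 of the 22 genes called higher were called in every setting (STAT2, IRF9, IRF7, EIF2AK2, OAS3, MX1, RSAD2, PARP9, IFI44L, IFI44 and XAF1), as was UBE2L6 of the 3 called lower, and none of the 25 changed sign. The higher count was 11 with the libraries of a treatment and batch averaged (6.1% of all genes) and 25 after quantile normalization (20.8%). It was 31 of 41 with mitochondrial and small RNA left out (32.2%), with OAS2, IFIT1, IFIT2, DDX60, CMPK2, SAMD9, USP18, PARP14 and EPSTI1 gained. With 1 library left out it was between 16 and 23 (10% to 11.5%). The lower count was 5 with batch as a replicate block (24.9% of all genes) and 1 with mitochondrial and small RNA left out (12.5%). It was 3 with any library left out. IRF8 turned to 0.0486 without mitochondrial and small RNA genes and to 0.0415 with the length and level trend removed, and IRF1 to 0.0502 without mitochondrial and small RNA genes.

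In batch 1 the higher count was 16 after quantile normalization and with the trend removed, 17 without mitochondrial and small RNA genes, and between 6 and 12 with 1 library left out. The lower count of batch 1 was 1 with no filter, with median-of-ratios scaling, quantile normalization, the trend removed, a constant variance prior or only the 4 libraries of the comparison, or without mitochondrial and small RNA genes, and 1 or 2 with a library left out. In batch 2 the lower count was 1 with the trend removed, likewise with mitochondrial and small RNA left out. Of all genes, those called higher in batch 1 were 12.4% after quantile normalization and 12.7% with the trend removed. They were 19.6% without mitochondrial and small RNA genes.

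Among DMSO libraries (batch 1 minus batch 2) the higher count was 0 with a pseudocount of 0.1, with no filter, with a constant variance prior or with only the 4 libraries, 1 without mitochondrial and small RNA genes, and 0 or 1 with 1 library left out. Among SF153 libraries it was 1 without mitochondrial and small RNA genes or with the trend removed, 0 with a constant prior, and 0 to 2 with 1 library left out; quantile normalization gave 2 lower. The interaction gave 4 lower with a filter at a mean of 5 or quantile normalization, 0 with a constant prior, and 1 to 2 with 1 library left out. The causes were not tested. Leaving out a library leaves a lone library, assumed to vary like the others. The precision is limited by 2 libraries per treatment and batch, and depth is unknown.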
